A study of Rattus norvegicus with 16 samples.

Results

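Complement and coagulation factors are 2 families of plasma proteins that act as cascades of proteases. The 41 rat genes described here were taken by symbol from a fixed list, and all 41 are among the 22517 gene symbols of the deposited files. They are 3 C1q chains, 5 proteases of the classical and lectin pathways, 2 mannose-binding lectins, C3 and factor B, 3 complement regulators, 7 terminal components, and 19 genes of clotting and clot removal. Of these, 39 had a value above 0 in at least 1 library. C3, the central component on which all complement pathways meet, and Pros1, which encodes protein S, the cofactor of activated protein C, were listed at exactly 0 in all 16 libraries. Alb, the most familiar hepatocyte gene, was also at 0 in every liver, so a 0 here is no evidence that a transcript is absent. Nothing further can be said of C3 or Pros1.

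RNA was sequenced from liver and epididymal fat of 8 obese male Zucker rats of the strain ZDF/GmiCrl-fa/fa, which carry 2 defective copies of the leptin receptor gene in every group. From 9 to 11 weeks of age, 4 rats ate Purina 5008 chow with LA, R-α-lipoic acid, and 4 rats ate Purina 5008 without it, pair-fed (PF), that is, held to the intake of the LA rats. No lean rats and no freely fed rats are among the samples. The resulting groups, PF liver, LA liver, PF fat and LA fat, hold 4 libraries each. The labels do not say which liver and fat libraries share a rat. The unit, FPKM, divides a gene's fragments by its length and by library size, so levels of different genes can be compared per length.

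Complement marks and lyses microbes and cells. C1q, made mainly by macrophages, binds antibody or dying cells and activates C1r and C1s; lectins do the same through the Masp proteases; factor B serves an alternative loop; and C5 to C9 assemble into a pore. Clotting starts when tissue factor meets factor VII or when the contact factors are activated, runs through factor X and thrombin, and ends with fibrinogen turned into fibrin, which plasmin removes. Hepatocytes secrete most of these proteins into plasma. Fat, endothelial cells and macrophages make a smaller set of their own.

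The tissue labels were checked against marker genes. Summed over 9 adipocyte markers the fat libraries held 34520.2 to 42907 FPKM and the livers 59.4 to 73.3. Adipoq, Plin, Lep and Retn are listed at 0 in every liver, which by itself says nothing of absence. Summed over 15 hepatocyte markers the livers held 44242 to 66974 FPKM and the fat libraries 132 to 1142. Alb, at 0 in every liver, was above 0 in fat, so it adds to the fat sums alone. The files hold no read totals, so depth is unknown apart from a rough estimate from low genes. By that estimate 1 fragment was worth 0.722 to 1 times its value in PF liver replicate 1 in the livers and 0.739 to 0.961 times in fat, with only 11.4 to 28.1% of the low genes at the estimated ratio. Within groups no 2 libraries held identical values. In these bulk samples, fewer cells of a type and less RNA per cell cannot be told apart.

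The first comparison set liver against fat within each diet. In both diets the same 28 of the 39 members tested were higher in liver, 9 were higher in fat, and C1r and C1s differed by less than 2-fold (limma on log2(FPKM + 1), adjusted p under 0.05 and a log2 difference over 1). Genes tested had at least 1 FPKM in at least 4 of the libraries compared. F11, Klkb1, F7 and C5 were under 1 FPKM in all fat libraries, and F8 and Vwf in all livers. Such members passed this filter only through the other tissue and could be called only in that direction, as could other genes like them. Over all genes tested, 11.1% were higher in liver and 36.3% higher in fat under PF, and 10.5% and 36% under LA, or 47.4% and 46.4% in either direction. The median log2 difference, liver minus fat, was 5.95 over the members and -0.66 over all genes under PF. The genes higher in liver were all 4 of the contact system, all 3 of the common pathway, all 4 of the fibrinogen and factor XIII B group, the 3 complement regulators, both mannose-binding lectins and 12 others. Higher in fat were the 3 C1q chains, C2, C6, C7, F3, F8 and Vwf. When each library was centred on its median gene, the all-gene median moved from -0.66 to 0.02, C2 and F8 no longer reached a 2-fold difference, and the calls over all genes went from 1273 higher in liver and 4174 higher in fat to 2064 and 2253 under PF (LA: from 1211 and 4161 to 1985 and 2292).

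The 3 fibrinogen chain genes were the highest members in liver. Fgb measured 2562, 3018, 2327 and 2469.9 FPKM in the PF livers and 13.8, 10.3, 9.83 and 21.9 in PF fat. Fgg, the gamma chain, measured 2412, 2853, 2219 and 2332 FPKM in the PF livers and 11.9, 14.8, 13.7 and 24.4 in PF fat. Fga, the alpha chain, measured 2080.0, 2471, 1828 and 2041 FPKM in the PF livers and 9.49, 6.32, 6.81 and 17.6 in PF fat. No fat library came near any liver library, and the log2 differences were 7.50, 7.20 and 7.67 (SE 0.21, 0.19 and 0.25). The protein is built from equal numbers of its 3 chains. In the PF livers Fga stood at 0.785 to 0.826 of Fgb and Fgg at 0.942 to 0.953, so the chains kept a nearly fixed ratio from rat to rat. In the LA livers these ratios were 0.716 to 0.793 and 0.851 to 0.959. The 3 genes lie side by side in the order Fgg, Fga, Fgb in RefSeq's rat assembly GRCr8.

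**Figure D1:**
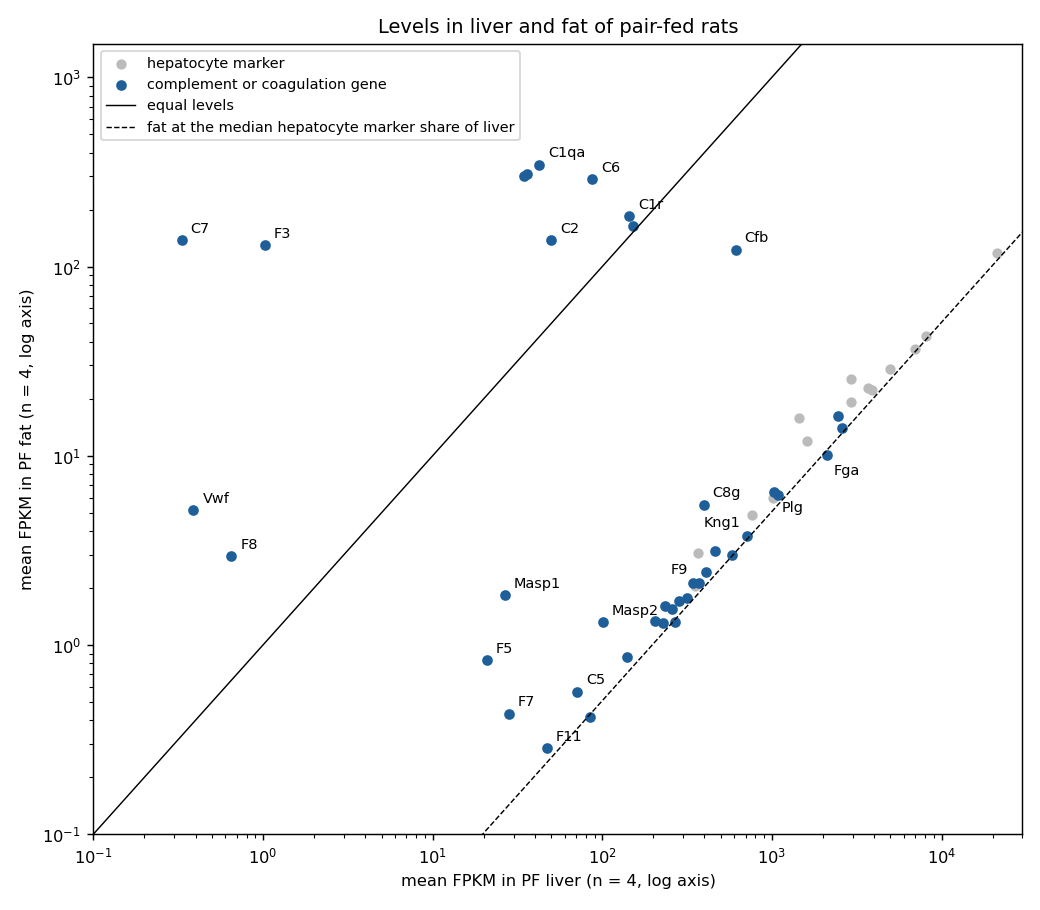
Mean FPKM in PF fat (vertical log axis) against mean FPKM in PF liver (horizontal log axis), with n = 4 libraries for each mean, for the 39 members above 0 (blue) and 14 hepatocyte markers (grey). The solid line marks equal levels and the dashed line marks fat at the median hepatocyte marker share of liver. Most members lie along the dashed line with the hepatocyte markers, Cfb, Masp1, F5 and F7 lie above it, and C7, F3, Vwf, F8, C6, C2 and the C1q chains lie above the line of equal levels.

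The promoters of the fibrinogen genes are shown because these genes are the highest members in liver and lie side by side. RefSeq's promoter table for GRCr8 held 30 of the 41 members. The 250 bases before the annotated start, 5′ to 3′ on the gene's strand, are given for the fibrinogen chain genes and for C6, the member that fell most in the LA livers. They lie at chr2:170671919-170672168 (Fga, plus strand), chr2:170700876-170701125 (Fgb, minus strand), chr2:170652833-170653082 (Fgg, plus strand) and chr2:55573383-55573632 (C6, plus strand). Capitals mark matches, on either strand, to 3 motifs of factors known to drive liver secretory genes. GTTAAT is the core of the site of HNF1. The letters TTGCNNAA are those of the C/EBP factors. The letters CTGGGAA belong to the acute-phase response to IL-6.
Fga: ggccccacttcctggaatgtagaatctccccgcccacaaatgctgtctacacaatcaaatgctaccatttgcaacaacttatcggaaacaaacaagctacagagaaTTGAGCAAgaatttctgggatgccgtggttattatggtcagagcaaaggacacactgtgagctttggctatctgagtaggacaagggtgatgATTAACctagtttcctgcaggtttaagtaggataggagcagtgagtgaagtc
Fgb: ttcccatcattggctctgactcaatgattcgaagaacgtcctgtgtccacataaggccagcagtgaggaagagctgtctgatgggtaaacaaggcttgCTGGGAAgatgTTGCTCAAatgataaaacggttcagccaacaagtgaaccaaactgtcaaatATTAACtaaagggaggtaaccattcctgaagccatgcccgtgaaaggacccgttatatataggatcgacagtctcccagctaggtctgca
Fgg: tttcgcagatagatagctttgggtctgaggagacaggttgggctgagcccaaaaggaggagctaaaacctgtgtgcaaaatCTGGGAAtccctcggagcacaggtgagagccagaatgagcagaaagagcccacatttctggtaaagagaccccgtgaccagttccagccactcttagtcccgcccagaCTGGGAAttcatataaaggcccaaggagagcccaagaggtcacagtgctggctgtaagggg
C6: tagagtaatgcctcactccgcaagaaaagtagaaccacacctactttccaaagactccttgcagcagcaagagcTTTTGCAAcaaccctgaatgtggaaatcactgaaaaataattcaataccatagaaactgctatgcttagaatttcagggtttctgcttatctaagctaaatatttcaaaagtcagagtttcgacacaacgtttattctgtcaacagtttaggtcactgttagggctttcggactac

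Fga held the HNF1 and C/EBP motifs, Fgb all 3, Fgg the IL-6 motif at 2 places and C6 the C/EBP motif alone. No match overlapped another. The HNF1 core stood 90 bases before the start of Fgb. Fga has 2 starts in the table, and the core stood 52 bases before the one used here and 70 bases before the other. The HNF1 core was found in 10 of the 30 member promoters (33.3%) and in 1959 of 27457 promoters of all genes (7.13%). All 10 belonged to the genes higher in liver, 10 of 24 with a promoter, against 64 of 772 (8.29%) among the other genes higher in liver and 0 of 3 among the members higher in fat. The C/EBP motif was in 11 of 30 members (36.7%) and 9.99% of all genes, and the IL-6 motif in 8 of 30 (26.7%) and 10.2%. A match is a description of the letters and not a bound site. In 5 further members, chosen to show clotting, fibrinolysis and complement in turn, the HNF1 core and its surroundings read as follows, with the core in capitals.
F2: cattggttcaatATTAACccagagagagtc
F13b: gatgtggtaattATTAACttgttttgtcaa
Plg: gcccagacaatgATTAACctcatcagacta
C8a: ccttggttactgGTTAATcacattgaatgg
C4bpa: actgcttcgtctGTTAATcatccaccggga
These windows lie at chr3:98065267-98065296, chr13:53681568-53681597, chr1:50915456-50915485, chr5:124866724-124866753 and chr13:44663530-44663559 of GRCr8. The core begins 38, 59, 67, 110 and 76 bases before the start, in that order.

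The other members higher in liver covered a wide range of levels. F2, prothrombin, stood at 1083 ± 103 FPKM (mean ± SD, n = 4) and Plg, plasminogen, at 1034 ± 70.9 in PF liver. Kng1, the kininogen that yields bradykinin, was at 714 ± 57.1 FPKM, and near-identical kininogen genes could share its reads. At the low end were Masp1, F7 and F5, with 26.7 ± 1.14, 28.1 ± 1.03 and 20.9 ± 2.83 FPKM. The other 19 liver-enriched members lay between F7 and Kng1.

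C7 and C6 encode 2 successive subunits of the pore and lie near each other in GRCr8, with only Mroh2b between them. C7 was a gene of fat and measured 153, 99.9, 184 and 113 FPKM in PF fat and 0.247, 0.123, 0.402 and 0.553 in the PF livers. Its mean was 415-fold higher in fat under PF and 179-fold under LA (log2 differences -6.67 and -6.33, adjusted p = 4.86e-11 and 6.72e-10, limma). The folds of means rest on liver values near 0, so their size is uncertain. The log2 differences, taken after adding 1 FPKM, stand for smaller folds. Under PF, C7 passed the filter only through fat. C6 was present in both tissues, with 316, 316, 254 and 277 FPKM in PF fat and 86.2, 97.7, 92.2 and 72.3 in the PF livers. Every fat library lay above every liver library, by 3.34-fold in the mean. The partners of C6 and C7 in the pore, C5, C8a, C8b, C8g and C9, were all higher in liver, from 70.9 FPKM for C5 to 581 for C9.

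F3, tissue factor, which starts clotting outside vessels, also belonged to fat. It measured 136, 112, 148 and 120.4 FPKM in PF fat and 0.660, 1.26, 1.05 and 1.13 in the PF livers, a 126-fold difference of means. That fold rests on low liver values. Its ligand F7 was the reverse, with 27.9, 29.5, 27.8 and 27.0 FPKM in the PF livers and 0.291, 0.470, 0.359 and 0.614 in PF fat. Vwf, the carrier of factor VIII that endothelial cells make, measured 6.89, 4.56, 5.25 and 3.87 FPKM in PF fat and 0.281, 0.405, 0.451 and 0.417 in the PF livers. F8 measured 3.48, 2.27, 3.77 and 2.23 FPKM in PF fat and 0.581, 0.677, 0.579 and 0.762 in the PF livers, and the groups did not overlap for either gene. Both are low, under 7 FPKM everywhere and under 1 FPKM in every liver, so they passed the filter only through fat. The sum of 7 endothelial markers was 133 to 182 FPKM in PF fat and 25.0 to 29.8 in PF liver, with Cldn5 at 0 in all groups. Of the 6 tested under PF, 5 were higher in fat and 1 was higher in liver, where 36.3% and 11.1% of all genes were. What part the number of endothelial cells has in the levels of Vwf and F8 was not tested.

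C2 and Cfb are neighbours in GRCr8 and encode homologous proteases, of the classical and alternative C3 convertases, yet stood on opposite sides. C2 measured 121, 170.5, 135 and 124 FPKM in PF fat and 48.9, 55.3, 46.3 and 48.4 in the PF livers, 2.77-fold higher in fat. Cfb measured 611, 649, 579 and 606 FPKM in the PF livers and 46.6, 183, 142 and 119 in PF fat, 4.98-fold higher in liver. In fat the 2 genes thus had similar means, 138 ± 22.7 and 123 ± 57.1 FPKM. C1r and C1s, the neighbouring protease pair of the C1 complex, were close between the tissues. C1r measured 151, 129, 162 and 133 FPKM in the PF livers and 151, 205, 218 and 164 in PF fat, and the groups overlapped. C1s measured 142, 129, 171 and 164 FPKM in the PF livers and 122, 195, 178 and 162 in PF fat, again with overlap. The log2 difference of C1s was -0.10 (95% interval -0.44 to 0.23) and that of C1r -0.35 (-0.65 to -0.04). With each library centred on its median gene they turned to 0.57 and 0.33, so neither has a direction that holds across scalings.

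**Figure D2:**
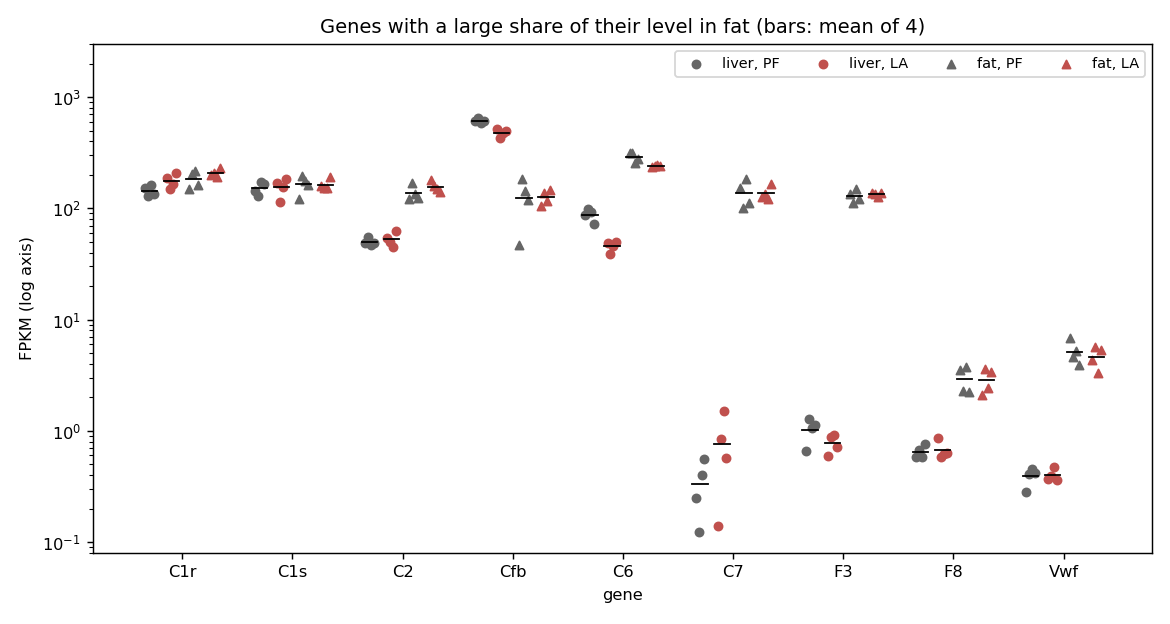
FPKM (log axis) of C1r, C1s, C2, Cfb, C6, C7, F3, F8 and Vwf in each library of the 4 groups, with bars at the mean of 4. C7 and F3 differ most between the tissues, C1r and C1s overlap, and the C6 values of LA liver lie below those of PF liver.

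The liver comparison asked for which members the 2 diets were apart. Of the 35 members tested, 11 fell under LA, none rose and 24 did not pass, where 2.21% of all 9710 genes tested fell, 2.27% rose and 4.48% did either (limma, adjusted p under 0.05). Those that fell were C6, C8g and C9 of the pore, the regulator Cfi, Cfb, the contact factor F12, F10, the fibrinogen chains Fga and Fgg, F13b and Plg. In the mean, 28 members were lower and 7 higher, and the median log2 difference was -0.28, against -0.002 over all genes. At an unadjusted p under 0.05 there were 25 of the 35 members, where 20.1% of all genes reached it. For 18 members every LA liver lay below every PF liver, where this holds for 6.39% of all genes, and for 1 member, C1qb, every LA liver lay above (5.89%). The members made up 2.63 to 2.80% of all FPKM in the PF livers and 2.14 to 2.37% in the LA livers.

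The count of 11 depended on single libraries. It was 3 without PF replicate 2 or LA replicate 2 (C6, C8g and F12), 4 without PF replicate 1 and 5 without LA replicate 3, where C1qb was called higher, and it was 6 with no filter on low genes and 1, C6, with all 16 libraries in one model. Total FPKM was itself lower in the LA livers, and with libraries rescaled to equal totals, which moved the all-gene median to 0.11, 8 members fell and 3 rose (C1qa, C1qb and C1r), while over all genes 117 fell and 524 rose in place of 215 and 220. Summed over the 15 hepatocyte markers the PF livers held 56236 to 66974 FPKM and the LA livers 44242 to 56831. Of the 14 that were tested none passed, 12 were lower in the mean, and their median was -0.20. The part of this in the members' difference was not tested.

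**Figure D3:**
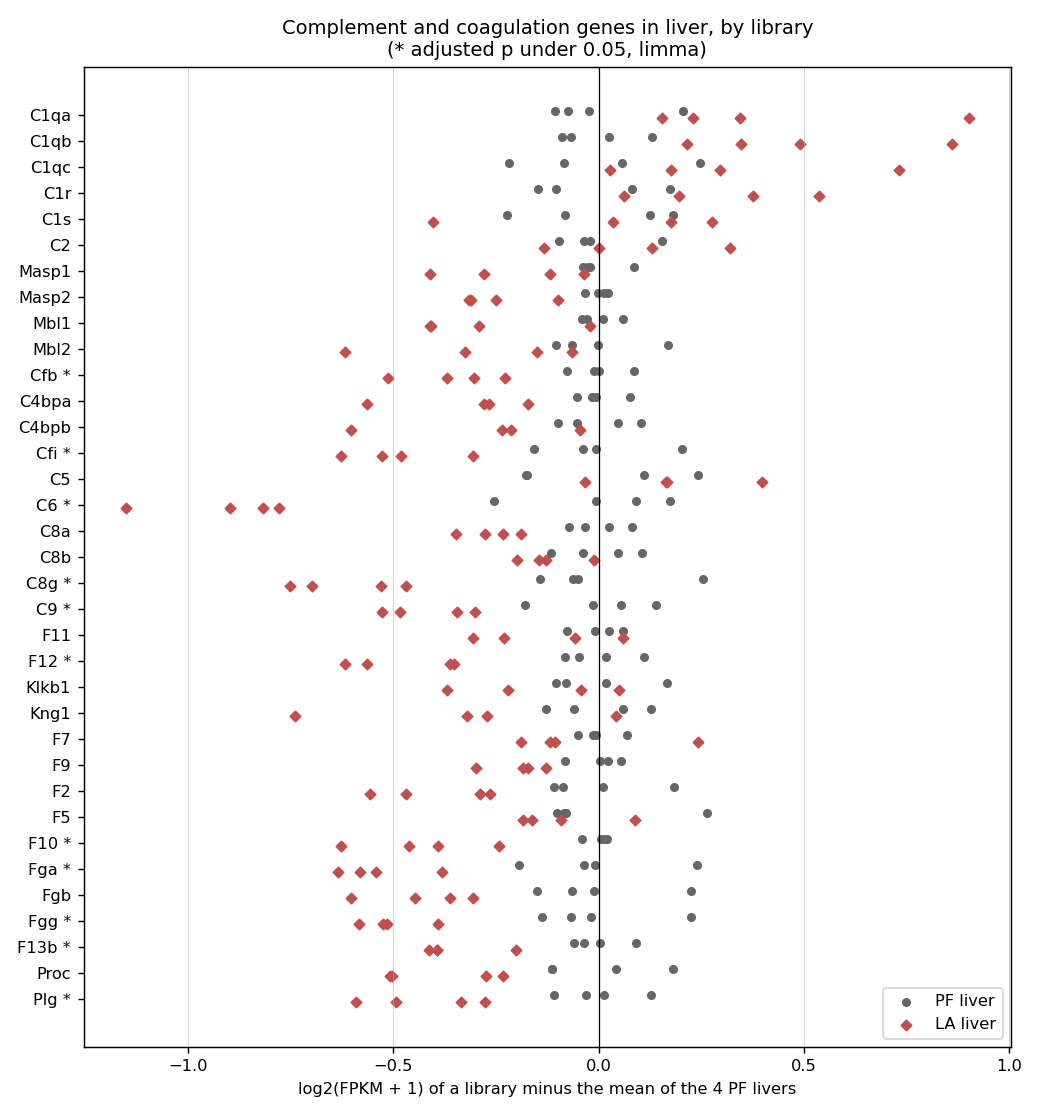
log2(FPKM + 1) of each liver library minus the mean of the 4 PF livers (horizontal axis), for the 35 members tested in liver, with PF livers in grey and LA livers in red. Stars mark the 11 members with an adjusted p under 0.05, all of them lower under LA, with C6 farthest to the left, and the C1q chains lie to the right.

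C6, the subunit that joins C5b in the nascent pore, showed the largest difference of all members. It measured 86.2, 97.7, 92.2 and 72.3 FPKM in the PF livers and 48.7, 38.4, 46.0 and 50.0 in the LA livers. The lowest PF liver was well above the highest LA liver, and C6 fell by 0.91 on the log2 scale (SE 0.11, adjusted p = 0.00171) to 52.6% of the PF mean. It was called under every alternative tried and without any single library. C8g, the lipocalin-like gamma chain of C8, measured 379.8, 470.0, 357 and 377 FPKM in the PF livers and 272, 233, 242 and 284 in the LA livers. Again no LA liver reached a PF liver, and C8g fell by 0.61 (SE 0.10, adjusted p = 0.00977). Its partner chains C8a and C8b, made from neighbouring genes, had log2 differences of -0.26 and -0.12 (adjusted p = 0.0645 and 0.426). The ratio of C8g to C8b was 1.80 to 2.15 in the PF livers and 1.32 to 1.47 in the LA livers.

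C9, which polymerises to form the wall of the pore, measured 573, 638, 511 and 601 FPKM in the PF livers and 455, 401, 469 and 414 in the LA livers. The groups did not overlap, and C9 fell by 0.42 (adjusted p = 0.0314). C5, the protein whose cleavage starts pore assembly, went the other way without passing, at 70.9 ± 10.5 and 79.9 ± 9.95 FPKM (log2 difference 0.17, 95% interval -0.09 to 0.44). C7 was below 1 FPKM in 7 of 8 livers and was not tested. Of the 6 terminal components tested, 3 therefore fell and 3 did not pass.

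Among the regulators and activators, Cfi, the protease that inactivates C3b and C4b, measured 366, 471, 407 and 398 FPKM in the PF livers and 293, 265, 284 and 330.4 in the LA livers. All LA livers lay below all PF livers, and Cfi fell by 0.49 (adjusted p = 0.0210). Cfb, the protease of the alternative loop, measured 521, 428, 473 and 495 FPKM in the LA livers, each below every PF value given above. It fell by 0.35 (adjusted p = 0.0421), a call that stood in 1 of the 8 fits with a library left out. The chains of C4b-binding protein, a cofactor of Cfi, were lower without passing, C4bpa by a log2 difference of -0.32 (adjusted p = 0.0763) and C4bpb of -0.27 (0.214).

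None of the 5 classical and lectin proteases or the 2 mannose-binding lectins passed. Masp2, which cleaves C4 and C2, was nearest, at 101 ± 1.68 FPKM in PF liver and 84.9 ± 6.19 in LA liver (log2 difference -0.24, adjusted p = 0.0783), with no overlap. Mbl1 and Mbl2, the lectins that recognise mannose on microbes, had log2 differences of -0.28 and -0.29 (adjusted p = 0.120 and 0.206). Masp1 differed by -0.21. C1r, C1s and C2 were higher in the mean, by 0.29, 0.02 and 0.08 (adjusted p = 0.182, 0.958 and 0.725).

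All 4 genes of the fibrinogen and factor XIII B group were lower in every LA liver than in any PF liver, and 3 passed. Fga measured 1606, 1399, 1348 and 1438 FPKM in the LA livers, against the PF values above, and fell by 0.53 (SE 0.11, adjusted p = 0.0233). Fgg measured 1862, 1697, 1629 and 1709 FPKM in the LA livers and fell by 0.50 (adjusted p = 0.0225). Fgb measured 2089.6, 1892, 1699 and 2009 FPKM in the LA livers, with a log2 difference of -0.43 that missed the threshold (adjusted p = 0.0580). The 95% intervals of the chains overlap widely, at -0.78 to -0.29 for Fga, -0.74 to -0.27 for Fgg and -0.68 to -0.18 for Fgb. The 3 chains together took 1.13 to 1.31% of all FPKM in the PF livers and 0.865 to 1.02% in the LA livers. F13b, the carrier subunit of the factor that cross-links fibrin, measured 134, 149, 136 and 140.1 FPKM in the PF livers and 106, 105, 106 and 121 in the LA livers. It fell by 0.35 (adjusted p = 0.0245).

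In the contact system, F12, which is activated on surfaces, measured 345, 367, 329 and 321 FPKM in the PF livers and 266, 229.6, 221 and 264 in the LA livers. The groups did not overlap, and F12 fell by 0.47 (adjusted p = 0.0137), also without any single library. Its substrates Klkb1 and F11, neighbouring genes, and the cofactor Kng1 did not pass, with log2 differences of -0.15, -0.13 and -0.32 (adjusted p = 0.478, 0.443 and 0.248). Factor X, on which both arms of clotting converge, comes from F10, which measured 284, 286, 275 and 285 FPKM in the PF livers and 205, 183, 215 and 238 in the LA livers. F10 fell by 0.43 (adjusted p = 0.0196). Its neighbour F7 measured 26.0, 24.5, 25.7 and 33.3 FPKM in the LA livers and was close to PF (log2 difference -0.04, 95% interval -0.25 to 0.17). F2, F9 and F5 did not pass, with log2 differences of -0.40, -0.20 and -0.09 (adjusted p = 0.0564, 0.162 and 0.684), although F2 and F9 did not overlap between diets.

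Of the genes of clot removal and anticoagulation, 1 of the 2 tested passed. Plg, the precursor of plasmin, measured 1041, 1127, 958 and 1010.5 FPKM in the PF livers and 852, 685, 733 and 818 in the LA livers. It fell by 0.42 (adjusted p = 0.0341), and the groups did not overlap. Proc, protein C, which inactivates factors V and VIII, had a log2 difference of -0.38 that missed the threshold (adjusted p = 0.0564). F3, F8 and Vwf were too low in liver to be tested between diets.

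The C1q chains had the 3 largest positive differences among the members in liver, but none passed. C1qa measured 39.9, 48.7, 41.4 and 39.1 FPKM in the PF livers and 53.7, 49.5, 47.0 and 79.5 in the LA livers. C1qb measured 32.3, 35.0, 32.8 and 37.8 FPKM under PF and 48.8, 44.0, 40.1 and 63.3 under LA. C1qc measured 37.1, 42.5, 30.5 and 33.6 FPKM under PF and 44.0, 40.4, 36.3 and 59.8 under LA. LA replicate 4 was the highest for each chain, and only for C1qb did the groups not overlap. The log2 differences were 0.41, 0.48 and 0.31 (adjusted p = 0.159, 0.0588 and 0.279). The chains assemble in equal numbers and come from adjacent genes in the order C1qb, C1qc, C1qa, and their levels stayed within 0.888 to 1.39 of C1qb in every liver.

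Macrophage markers are given beside C1q because macrophages make it. Of 13 macrophage markers in the files, Emr1 and Marco were at 0 in all libraries; summed, the 13 came to 159 to 197 FPKM in the PF livers, all below the 220 to 319.7 FPKM of the LA livers. Of the 10 tested in liver, Vsig4, Cd163 and Clec4f rose and the other 7 did not pass, where 2.27% of all genes rose. The median log2 difference of the 10 was 0.53. The C1q chains per 100 FPKM of those markers came to 63.1 ± 6.46 in PF liver and 59.5 ± 3.78 in LA liver (mean ± SD, n = 4). In fat the same quantity was 85.0 ± 15.1 under PF and 68.0 ± 7.45 under LA. Vsig4, itself a complement receptor of Kupffer cells that binds C3b, went from 17.7 ± 1.54 to 25.5 ± 4.14 FPKM in liver. The part of macrophage number in the C1q levels was not tested.

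**Figure D4:**
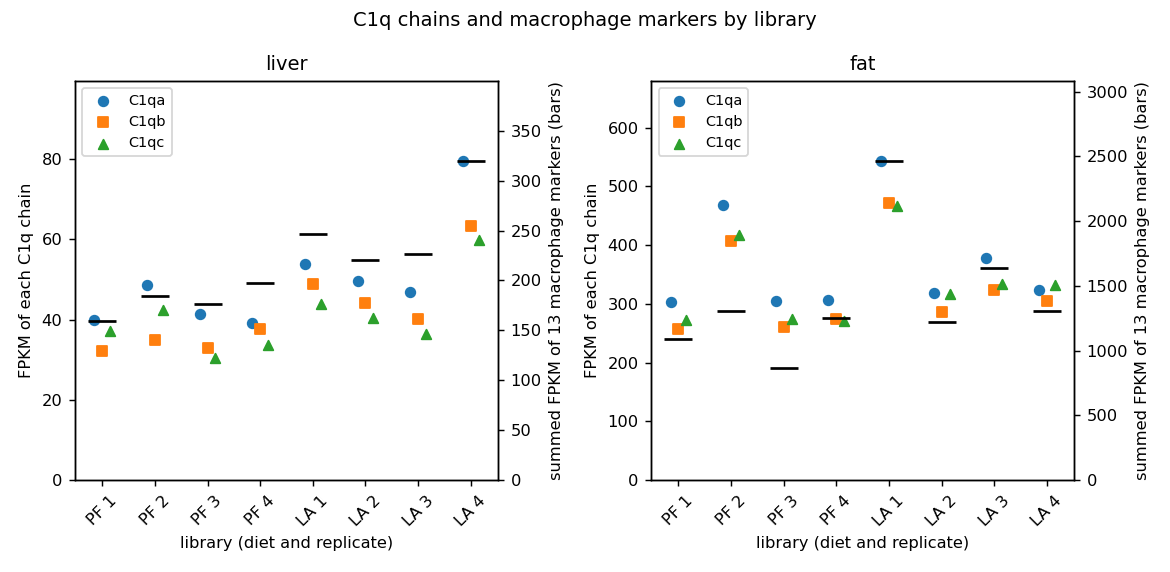
FPKM of C1qa, C1qb and C1qc (left axes, points) and summed FPKM of 13 macrophage markers (right axes, black bars) in each liver and fat library. In liver, LA replicate 4 is highest for all 3 chains and for the markers, and in fat, PF replicate 2 and LA replicate 1 carry the highest C1q levels.

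Fat held far more C1q than liver. C1qa measured 303, 468, 305 and 307 FPKM in PF fat and 543, 319, 378 and 323 in LA fat. C1qb measured 258, 407, 261 and 274 FPKM under PF and 471, 287, 324 and 305 under LA. C1qc measured 273, 418, 275 and 270.2 FPKM under PF and 467, 317, 334 and 332 under LA. PF replicate 2 and LA replicate 1 were the highest in their groups for every chain. The means were 8.18-fold, 8.70-fold and 8.61-fold higher than in liver under PF, for C1qa, C1qb and C1qc, and 6.81-fold, 7.07-fold and 8.03-fold under LA. Summed macrophage markers were 869 to 1310 FPKM in PF fat, also above every liver. The single markers did not all go that way. Under PF, 7 of the 11 tested were higher in fat and 3 higher in liver, where 36.3% and 11.1% of all genes were. Clec4f averaged 48.4 FPKM in PF liver and 0.402 in PF fat.

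The fat comparison asked the same question of the diets. Of the 31 members tested none passed, where 0.0174% of all 11501 genes did, and 1 member, C6, had an unadjusted p under 0.05, which 3.92% of all genes had. C6 measured 316, 316, 254 and 277 FPKM in PF fat and 235, 239.6, 246 and 241 in LA fat. All LA libraries lay below all PF libraries (0.756% of all genes), with a log2 difference of -0.27 (95% interval -0.49 to -0.05, adjusted p = 1.000). C7, its partner in fat, measured 125, 133, 121 and 165 FPKM in LA fat, with a log2 difference of 0.02 (95% interval -0.41 to 0.45). F3 measured 137, 135, 127 and 138 FPKM in LA fat, with a difference of 0.06 (-0.17 to 0.29). C2 measured 178, 158, 149 and 141 FPKM in LA fat, and its difference of 0.19 did not pass (-0.09 to 0.48).

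For the C1q chains the differences in fat were 0.17, 0.21 and 0.24, each with an interval that includes 0, and the first was -0.00149 without LA replicate 1. F8 measured 2.09, 3.59, 2.44 and 3.35 and Vwf 4.29, 5.66, 3.28 and 5.35 FPKM in LA fat, with differences of -0.02 and -0.12. Cfb, one of the few liver-enriched members with a sizeable level in fat, measured 46.6, 183, 142 and 119 FPKM in PF fat and 106, 136, 117 and 145 in LA fat. Its lowest value, in PF replicate 1, came with the lowest sum of 6 mesothelial markers, 54.0 FPKM, against 237 to 367 in the other PF fat libraries. The part of mesothelial cells in that value was not tested.

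The fat levels of the 28 members higher in liver are best read beside the hepatocyte markers. As a percent of the mean liver level of the same diet, these members had a median of 0.611% in PF fat and 0.518% in LA fat. Library by library the median over the members was 0.540, 0.414, 0.513 and 0.998% in PF fat replicates 1 to 4, and that over 14 hepatocyte markers 0.528, 0.422, 0.487 and 0.964%. In LA fat replicates 1 to 4 it was 0.464, 0.371, 1.13 and 0.145% over the members and 0.415, 0.325, 0.948 and 0.109% over the markers. Both sets were highest in PF replicate 4 and LA replicate 3 and lowest in LA replicate 4. Of the 28 members, 26 had their highest PF fat value in replicate 4, 24 their highest LA fat value in replicate 3 and 24 their lowest in LA replicate 4. Whether these low levels are transcripts made in fat was not tested.

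**Figure D5:**
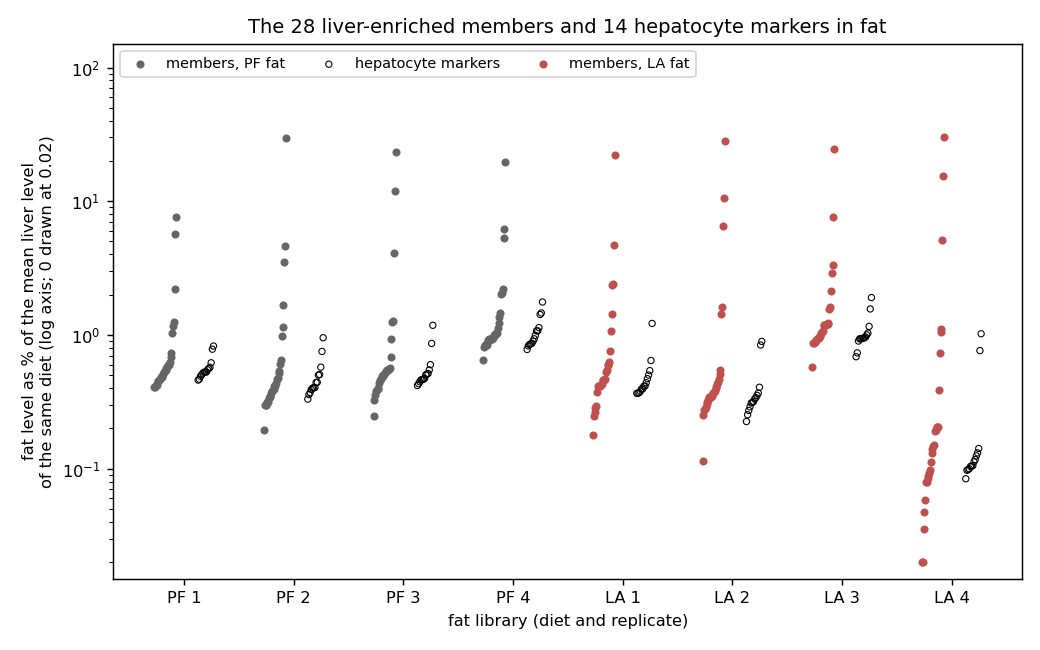
Level in each fat library as a percent of the mean liver level of the same diet (vertical log axis, values of 0 drawn at 0.02), for the 28 members higher in liver (filled points) and 14 hepatocyte markers (open points). The 2 sets rise and fall together across the libraries, and a few members, led by Cfb, lie far above the markers.

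Some members stood above the hepatocyte markers. The highest marker mean over 4 libraries was that of Arg1, at 1.09% in PF fat and 1.26% in LA fat. In single libraries the markers reached 1.76% and 1.90%. As means of 4 libraries, Cfb stood at 20.1% of its liver level in PF fat and 26.3% in LA fat. Masp1 stood at 6.87% and 9.56%, F5 at 3.99% and 4.35%, and Masp2 at 1.31% and 1.33%. F7 was above the highest marker mean in PF fat, at 1.55%, but not in LA fat, at 1.13%. Masp1, whose protein starts the lectin pathway, measured 1.53, 1.23, 3.16 and 1.41 FPKM in PF fat and 1.09, 2.42, 1.75 and 3.55 in LA fat, and its highest libraries, PF replicate 3 and LA replicate 4, were not those with the most hepatocyte marker signal. C8g, at 1.39% and 2.00%, kept 2.86 FPKM in LA replicate 4, where C8a and C8b were at 0.170 and 0.148. Fgg behaved likewise among the fibrinogen chains, with 6.68 FPKM in that library beside 1.90 for Fga and 1.89 for Fgb. As a percent of liver, C8g stood there at 1.11% and Fgg at 0.387%, against a marker median of 0.109%. The hepatocyte markers Arg1 and Hpd also stood high there, at 1.02% and 0.764%, so this is not particular to C8g and Fgg.

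The difference of the diet effects between the tissues was tested over all 16 libraries. None of the 39 members passed, where 0.381% of all 12079 genes did, so no member was shown to respond differently in liver and fat. C6 was nearest, with a liver effect lower than the fat effect by a log2 difference of -0.64 (SE 0.15, adjusted p = 0.0830), and it passed without PF liver replicate 4. Cfb and C8g followed in size, at -0.54 and -0.50 (adjusted p = 0.837 and 0.746). For most liver-enriched members the fat values are low and the interval is wide, as for Fga at -0.94 to 1.27. With the liver share subtracted from fat, the difference of Fga turned from 0.17 to -0.85.

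Other genes of the 2 cascades gave a mixed picture in liver. The counts in this and the next lists stand beside 2.21% of all genes that fell, 2.27% that rose and 4.48% that did either. Whether the calls of these genes hold with a library left out was not examined. Of 8 other complement components tested, none passed and 4 were lower in the mean. C4b and its near-identical copy listed as C4-2, which could share reads and are uncertain, were at 134 ± 14.4 and 38.5 ± 2.29 FPKM in PF liver and at 271 ± 151 and 251 ± 56.9 in PF fat. The fat libraries of C4b ran from 92.3 to 453 FPKM, around the liver values, and C4b did not pass between the tissues. Cfd, adipsin, the fat-made protease that activates factor B, was at 1208 FPKM in PF fat and 1622 in LA fat, against 9.77 ± 2.75 in PF liver. Of 10 receptors and regulators tested, 1 rose, Vsig4 (log2 difference 0.50, adjusted p = 0.0300), and 1 fell, Vtn, vitronectin, which blocks pore insertion, by 0.43 (adjusted p = 0.0407). Serping1, the inhibitor of C1r and C1s, did not pass at -0.12.

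Of 13 other coagulation and anticoagulant genes tested in liver, 4 fell and none rose, where 2.21% and 2.27% of all genes did. Their median log2 difference was -0.36. Serpind1, heparin cofactor II, fell by 0.38 (adjusted p = 0.0293), and Serpina10, the inhibitor of factor Xa that works with protein Z, by 0.39 (adjusted p = 0.0117). Fgl1, a fibrinogen-like protein secreted by hepatocytes, fell from 306 ± 58.7 to 169 ± 35.9 FPKM. Stab2, a scavenger receptor of liver sinusoidal endothelium, fell by 0.50 (adjusted p = 0.0167). Serpinc1, antithrombin, was the most abundant of the list and did not pass at -0.21. Of 7 fibrinolysis genes 1 fell, Serpinf2, the inhibitor of plasmin, by 0.54 (adjusted p = 0.0113). So both plasminogen and the inhibitor of its product were lower.

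Of the 5 genes of the vitamin K cycle and factor V and VIII secretion, Vkorc1 fell from 259.5 ± 27.5 to 184 ± 20.1 FPKM and the others did not pass. It encodes the reductase that warfarin blocks and that the carboxylation of F2, F7, F9, F10 and Proc depends on. Of 13 acute-phase genes tested, 2 fell, Apcs by 0.51 and Itih4 by 0.43 (adjusted p = 0.0125 and 0.0276), and the list median was -0.27. Crp and Hp, the most abundant, did not pass, at -0.26 and -0.35. None of 11 regulators of hepatocyte secreted genes passed, Hnf4a at -0.14 and Cebpa at -0.01 among them. In fat no gene of these lists passed, where 0.0174% of all genes did.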

How the data were processed

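RNA-seq libraries were made with a kit that does not mark strand, per the labels' protocols. The submitters' processing notes name CASAVA 1.8.2, TopHat and Cuffdiff; no build or annotation is named in the labels or file headers. Values deposited by the authors were FPKM per gene symbol in each of the 16 libraries, with no counts, so an exact 0 can be a failed estimate and depth limits are not known.

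Here log2(FPKM + 1) was tested with limma 3.58.1 in R 4.3.3 (trend in the variance), on genes with at least 1 FPKM in at least 4 of the libraries compared, with Benjamini-Hochberg adjustment over all genes tested. Fold changes on this scale understate the change of low genes. Genes with an adjusted p under 0.05 were called, between tissues also with a log2 difference over 1. Each comparison used its own 8 libraries, and the difference of diet effects all 16. Scripts were tested on simulated data. All 41 members were described, and other genes were named where they were called or among the most abundant of their list. The members and lists were chosen with earlier results of these data known. P-values measure the spread between these samples. Alternatives were another pseudocount (0.1), no filter, median centring, a replicate block, leaving out genes at 0 in a group, a model of all 16 libraries, subtracting the liver share from fat, adjusted p alone, and leaving out each library; rescaling to equal sums was added after seeing the data. Promoters came from RefSeq, build GRCr8.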

Additional observations from a re-analysis of the deposited data

Results flagged for a closer look

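In 13 of 156 groups of 4 libraries, 1 library stood far from the other 3 for a member, by the gap to its neighbour relative to the range. Chance gives about 1 in 20 groups for independent, normally distributed values. The groups here share libraries and hold FPKM, so that rate cannot say whether 13 is many. In PF fat, replicate 2 held 468 FPKM of C1qa, 407 of C1qb and 418 of C1qc, where the other libraries reached 307, 274 and 275. In LA fat, replicate 1 held 467 FPKM of C1qc, above 334 in the next. PF fat replicate 4, the PF fat library with the most hepatocyte marker signal, was high for C4bpa at 2.93 FPKM, C8g at 7.95 and F9 at 3.46. Masp1 was high in PF fat replicate 3, at 3.16 FPKM, and in PF liver replicate 2, at 28.4 FPKM. F5 stood at 25.1 FPKM in PF liver replicate 3, where the others lay between 19.3 and 19.6. LA liver replicate 4 was high for F7, at 33.3 FPKM, and F13b, at 121 FPKM. F8 was high in LA liver replicate 1, at 0.866 FPKM. The causes were not tested.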

How the results depend on the processing

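The count of 11 members that fell in the LA livers was 6 with no filter on low genes and 1 with all 16 libraries in one model. With each library left out, 3 to 10 members were called. The cause was not tested. The same 11 members fell with a pseudocount of 0.1 and with median centring, and rescaled libraries gave 8 lower and 3 higher. No member was called for a difference of diet effects, but 2 were with the liver share subtracted from fat (Fga, at -0.85, and Plg), and 0 to 1 with each library left out. No member was called in fat under any alternative. Between tissues, 33 to 34 of 37 members were called under PF and 32 to 34 under LA with each library left out, where fewer genes were tested. Single values were followed for all members tested between diets in liver, but only for chosen members in the other comparisons. For the difference of diet effects these were C6, Cfb, C8g and Fga, so Plg is not counted there. Of these 1217 values, 1111 kept direction and side of the threshold. Another 66 were no longer past it, 9 were newly past it and 31 changed sign. The counts do not describe the members left out. In none of those 31 was the member called in the main fit of the comparison that changed sign. Fga, however, was called after its change of sign, in the fit with the liver share subtracted from fat. Some of these members, such as Fga and C7, were called in another comparison. With median centring the liver minus fat differences turned positive, to 0.33 for C1r and 0.57 for C1s under PF and to 0.44 and 0.58 under LA, and C7 in fat turned to -0.0031. With libraries rescaled the liver diet differences turned to 0.013 for C8b, 0.086 for F7 and 0.040 for F5, and C7 in fat turned to -0.0065. With each library left out, log2 diet differences in liver ranged from -0.064 to 0.16 for C1s, -0.0012 to 0.15 for C2, -0.14 to 0.0050 for F7 and -0.15 to 0.00021 for F5. In fat they ranged from -0.00149 to 0.32 for C1qa, -0.12 to 0.17 for C7, -0.00085 to 0.13 for F3, -0.11 to 0.080 for F8 and -0.22 to 0.0087 for Vwf. The difference of diet effects ranged from -0.21 to 0.59 for Fga, and liver minus fat under LA from -0.18 to 0.052 for C1s.

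Same-numbered PF and LA libraries did not deviate together (r = 0.15, 0.029, 0.081 and 0.004 in liver, and -0.061, -0.27, -0.372 and -0.426 in fat). For liver and fat of the same number, which the labels do not tie to a rat, r was 0.074, 0.304, 0.125 and -0.031 under PF, with the same number as best partner for replicates 1 to 3, and -0.138, 0.115, 0.098 and -0.228 under LA. Not every pair was above 0.1, so the numbers were not taken as pairs. With the replicate number as a block, 5 members were called in liver, C6, C8g, F12 and F10 lower and C1qb higher, and 37 between the tissues in each diet. Depth is unknown, which limits what can be said of members near 0.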
